A study of Mus musculus with 6 samples.

Results

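The markers described here are 10 genes that blood vessel endothelium expresses and most other cells do not: Pecam1, Cdh5, Kdr, Flt1, Tie1, Tek, Emcn, Cldn5, Egfl7 and Vwf. They were chosen by name, and each was found as 1 protein-coding gene among the 54232 genes of a table of RNA-seq read counts from oviduct muscle preparations. All 10 had enough reads to be tested. Endothelial cells line every vessel of the oviduct wall. They grow and sprout under vascular endothelial growth factor (VEGF), which is read by the receptors KDR and FLT1. They also respond to the angiopoietins, which are read by TEK with its partner TIE1. Pecam1, Cdh5 and Cldn5 encode proteins of the contacts between endothelial cells, Emcn encodes a sialomucin of their surface, and Egfl7 and Vwf encode proteins that they secrete.

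The libraries were made from oviducts of female mice aged 8 to 12 weeks on day 2 of pregnancy after mating with stud males. The 3 control libraries carry the genotype label WT, while a legend in the study's supplement names floxed Pbrm1 fl/fl controls, and the 3 others carry the label Pbrm1 cKO, in which the study removed floxed Pbrm1 with a PR-IRES-cre, a cre that follows the progesterone receptor gene Pgr. Tissue of both groups was digested, filtered and plated in serum for 4 h and for a further 2 h in fresh medium before RNA was taken. The labels name no strain and do not state if 1 female or several gave the cells of each library, so p-values measure the spread between these libraries, which may be partly technical. Pbrm1 encodes the BAF180 subunit of the PBAF chromatin remodeling complex.

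The cells are labelled as primary oviductal muscle cells, and the stated preparation names no step aimed at removing endothelium. Libraries held between 15390818 and 18947947 counts, and 3 counts, taken as the floor, equalled 0.159 to 0.193 CPM (counts relative to library size, with the factors of the test). Smooth muscle markers were abundant, at a summed level of 3470 to 3542 CPM for 8 genes in WT, and the 10 endothelial markers summed to 381 to 405 CPM in WT, so endothelial transcripts were present in every library. Pbrm1 itself had 170, 183 and 172 CPM in the WT libraries and 43.5, 50.7 and 42.7 CPM in those of Pbrm1 cKO, 26.0% of the WT mean (log2 fold change −1.94, edgeR adjusted p = 9.13e-11). In these mixed preparations, fewer cells of a type and less RNA per cell cannot be told apart, and the cells that lost Pbrm1 were not identified.

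The 10 markers did not move alike. Kdr fell to 54.7% of its WT level, Vwf rose 3.28-fold, Flt1 rose 1.50-fold and Egfl7 rose 1.37-fold, and the other 6 did not pass the test at an adjusted p under 0.05. That made 4 of 10 called, 3 higher and 1 lower in Pbrm1 cKO. Over all 15376 genes tested, 43.7% were called, 21.9% higher and 21.8% lower, so the share of called markers was close to that of any gene in this comparison. The groups did not overlap for 5 of 10 markers (Pecam1, Kdr, Flt1, Egfl7 and Vwf), against 53.5% of all tested genes. The median log2 fold change was 0.05 over the markers and 0.0016 over all tested genes.

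**Figure D1:**
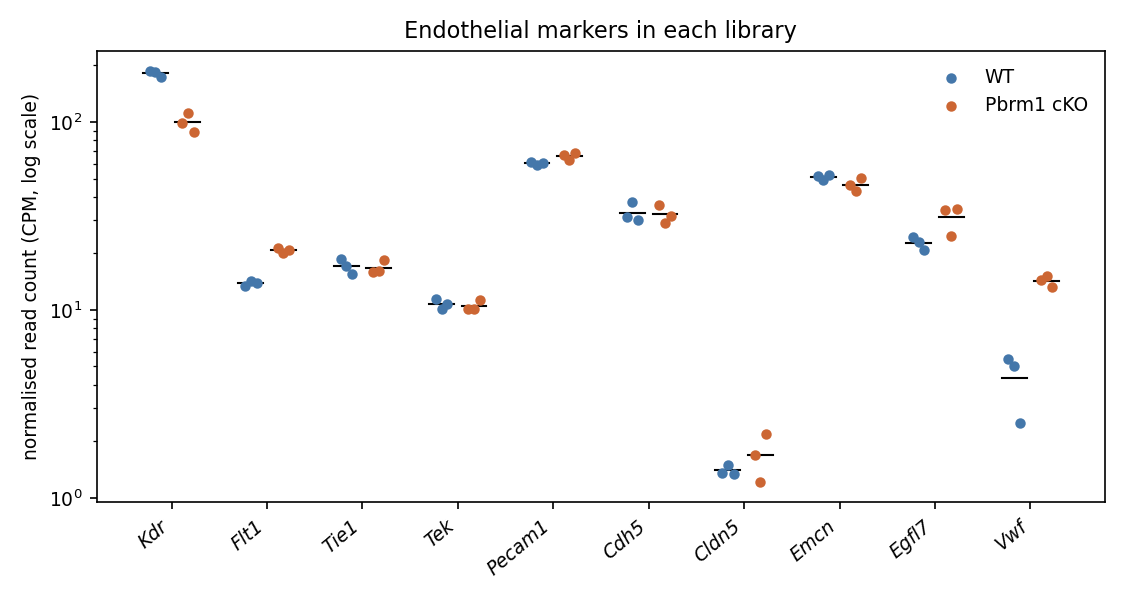
CPM of each of the 10 markers in the 3 WT and the 3 Pbrm1 cKO libraries, on a shared log scale, with points for libraries and a bar for the group mean. Kdr falls from 182 to 99.4 CPM and Vwf rises from 4.35 to 14.2 CPM, while the points of Tie1, Tek and Cdh5 overlap between the groups.

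**Figure D2:**
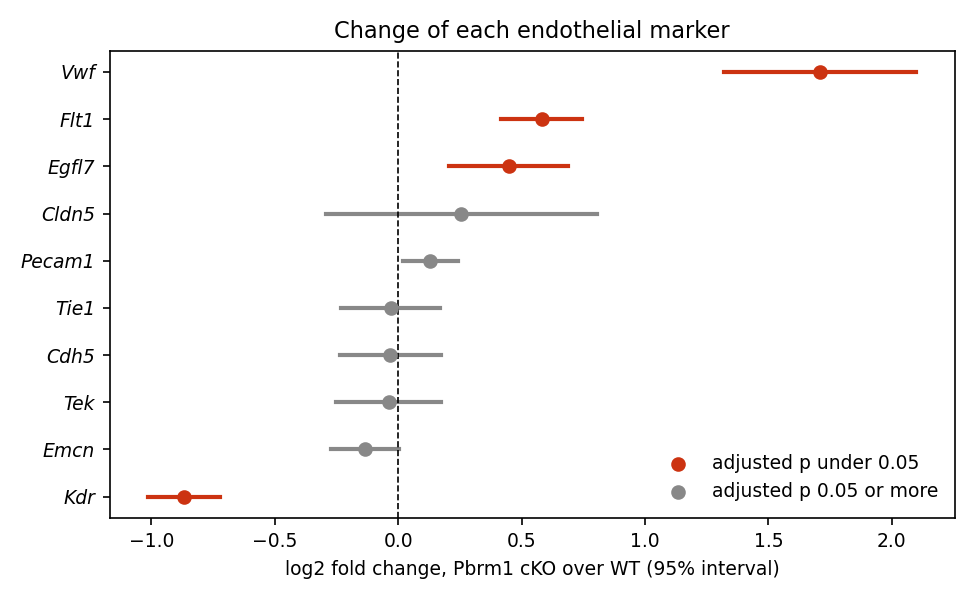
Log2 fold change of each marker, Pbrm1 cKO over WT, with its 95% interval from edgeR. Kdr lies at −0.87 and Vwf at 1.71, and the intervals of Tie1, Tek, Cdh5, Emcn and Cldn5 include 0.

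The receptors for VEGF moved in opposite directions. Kdr (ENSMUSG00000062960.10, chr5:75932827-75978458, minus strand, GRCm38) encodes VEGFR2, the main signalling receptor for VEGF-A. Its level was 186, 185 and 174 CPM in WT and 99.0, 111 and 88.3 CPM in Pbrm1 cKO. The highest Pbrm1 cKO library was far below the lowest WT library. The means were 182 ± 6.61 and 99.4 ± 11.3 CPM (SD, n = 3), a log2 fold change of −0.87 ± 0.068 (SE, 95% interval −1.01 to −0.72, edgeR adjusted p = 3.65e-07). Only 8.40% of all tested genes changed more, in either direction.

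Flt1 (ENSMUSG00000029648.13, chr5:147561604-147726011, minus strand) encodes VEGFR1, which binds VEGF-A, VEGF-B and placental growth factor and whose soluble form traps them. Its level was 13.5, 14.2 and 13.9 CPM in WT and 21.4, 20.2 and 20.7 CPM in Pbrm1 cKO, with no overlap and little spread inside either group. The log2 fold change was 0.58 ± 0.077 (SE, 95% interval 0.42 to 0.75, edgeR adjusted p = 4.1e-05). The soluble and membrane forms were counted together, since all exons of the gene were merged into 1 row of 13504 bases.

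Kdr and Flt1 were read in the same 6 RNA samples, so their ratio needs no scaling between libraries. There were 13.8, 13.1 and 12.5 Kdr counts for each Flt1 count in WT and 4.63, 5.50 and 4.26 in Pbrm1 cKO. The ratio dropped in all 3 Pbrm1 cKO libraries to well under the lowest WT value, a log2 difference of −1.46. The exact two-sided permutation test gave p = 0.1, which is the smallest that 3 against 3 libraries allow (0.171 after adjustment over the 12 ratios computed).

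The letters of both promoters are given because these 2 receptor genes share a ligand and moved in opposite directions. Each window runs from 250 bases before to 50 bases after the annotated start, 5′ to 3′ on the gene's strand (RefSeq, GRCm38.p6). Capitals mark GGAAG or its complement CTTCC, a form of the site that ETS factors such as ERG and FLI1 recognise. Other forms, such as GGAA without the last G, were not marked or counted.
Kdr, chr5:75978406-75978705, minus strand: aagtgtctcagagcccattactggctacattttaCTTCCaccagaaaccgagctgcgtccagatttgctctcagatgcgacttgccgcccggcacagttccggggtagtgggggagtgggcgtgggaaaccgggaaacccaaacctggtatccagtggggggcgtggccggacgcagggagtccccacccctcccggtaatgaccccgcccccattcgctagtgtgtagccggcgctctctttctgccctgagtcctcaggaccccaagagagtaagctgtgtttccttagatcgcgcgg
Flt1, chr5:147725962-147726261, minus strand: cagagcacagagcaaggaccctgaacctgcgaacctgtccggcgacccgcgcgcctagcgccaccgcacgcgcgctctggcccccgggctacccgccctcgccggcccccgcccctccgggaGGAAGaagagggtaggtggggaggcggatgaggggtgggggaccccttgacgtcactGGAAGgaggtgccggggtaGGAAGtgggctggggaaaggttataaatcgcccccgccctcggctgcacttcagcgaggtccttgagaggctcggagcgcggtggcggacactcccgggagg
The Kdr window held 1 such match, no TATAAA and 2 GC boxes (GGGCGG on either strand). The Flt1 window held 3 matches, 1 TATAAA and 3 GC boxes. GGAAG on either strand was found in 71.4% of all 32851 promoter windows of that length, with 3 or more in 16.5%, while TATAAA was found in 13.6% and GGGCGG in 35.7%. These matches describe the letters and were not tested for binding.

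The angiopoietin receptors showed no called change. Tie1 (ENSMUSG00000033191.14, chr4:118471191-118490061, minus strand) encodes a receptor without a ligand of its own that pairs with TEK. Its level was 18.7, 17.1 and 15.6 CPM in WT and 15.9, 16.1 and 18.4 CPM in Pbrm1 cKO, and the groups overlapped almost fully. The log2 fold change was −0.03 with a 95% interval of −0.23 to 0.17 (edgeR adjusted p = 0.818), and its sign turned when single libraries were left out.

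Tek (ENSMUSG00000006386.15, chr4:94739289-94874976, plus strand) encodes TIE2, which binds the angiopoietins. Its level was 11.5, 10.1 and 10.7 CPM in WT and 10.1, 10.1 and 11.3 CPM in Pbrm1 cKO. The interval of its log2 fold change ran from −0.25 to 0.17 around −0.04 (edgeR adjusted p = 0.783). The ratio of Tie1 to Tek counts was 1.59 ± 0.124 in WT and 1.601 ± 0.0293 in Pbrm1 cKO (SD, n = 3, exact permutation p = 0.9).

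The promoter windows of the TIE receptors are given with the same marking, because neither gene was called while their windows differ in these letters.
Tie1, chr4:118489800-118490099, minus strand: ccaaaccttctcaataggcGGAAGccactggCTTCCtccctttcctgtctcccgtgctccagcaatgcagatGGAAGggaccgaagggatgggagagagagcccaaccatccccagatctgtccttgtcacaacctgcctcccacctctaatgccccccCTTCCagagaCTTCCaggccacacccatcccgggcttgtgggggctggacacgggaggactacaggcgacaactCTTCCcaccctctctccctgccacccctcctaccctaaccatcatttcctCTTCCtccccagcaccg
Tek, chr4:94739039-94739338, plus strand: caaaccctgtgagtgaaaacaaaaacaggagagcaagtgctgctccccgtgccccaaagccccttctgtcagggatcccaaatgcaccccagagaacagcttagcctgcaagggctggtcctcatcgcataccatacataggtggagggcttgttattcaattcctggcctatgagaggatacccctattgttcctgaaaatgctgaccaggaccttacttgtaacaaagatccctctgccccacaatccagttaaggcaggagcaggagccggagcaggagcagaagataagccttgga
Tie1 had 7 matches to GGAAG on either strand, a number reached by 0.234% of all windows, and Tek had none. Tek held 1 GATAA on either strand, the core of GATA factors, which was present in 25.4% of windows. Entries were found for 7 of the 10 markers. The entry of Emcn held 2 GGAAG matches and that of Cldn5 none, and the 3 entries of Egfl7 held 4, 3 and none. Among the receptors, Kdr had 1 match, Flt1 3, Tie1 7 and Tek none, and a relation of these counts to the changes was not tested.

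Among the genes of cell contacts and surface, none was called. Pecam1 (ENSMUSG00000020717.19, chr11:106654217-106750628, minus strand) encodes CD31, an adhesion molecule of endothelium that platelets and many leukocytes also carry. Its level was 61.1, 59.2 and 60.1 CPM in WT and 66.8, 62.7 and 68.1 CPM in Pbrm1 cKO. All 3 Pbrm1 cKO libraries lay above the 3 WT libraries, by a small margin. The means were 60.1 ± 0.958 and 65.9 ± 2.86 CPM (SD, n = 3), with a log2 fold change of 0.13 (95% interval 0.02 to 0.24, edgeR adjusted p = 0.0577). The gene passed the threshold without Pbrm1 cKO replicate 2 (edgeR adjusted p = 0.0151) and when libraries were scaled by their totals alone (edgeR adjusted p = 0.0407).

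Cdh5 (ENSMUSG00000031871.9, chr8:104101625-104144511, plus strand) encodes VE-cadherin, the cadherin of endothelial adherens junctions. Its level was 31.3, 37.6 and 29.9 CPM in WT and 36.2, 29.1 and 31.5 CPM in Pbrm1 cKO. The libraries were interleaved, with 1 high library in each group. The log2 fold change was −0.03 with a 95% interval of −0.24 to 0.17 (edgeR adjusted p = 0.818), and it was positive without WT replicate 2 (0.08) or without Pbrm1 cKO replicate 2 (0.05).

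Emcn (ENSMUSG00000054690.17, chr3:137341067-137432185, plus strand) encodes endomucin, a mucin of capillary and venous endothelium. Its level was 51.4, 49.1 and 52.3 CPM in WT and 45.9, 43.1 and 50.3 CPM in Pbrm1 cKO. Only Pbrm1 cKO replicate 3 fell inside the WT range. Its log2 fold change came to −0.13 ± 0.064 (SE, n = 3 against 3 libraries, edgeR adjusted p = 0.107), and without that library it was −0.19 with an adjusted p of 0.0275.

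Cldn5 (ENSMUSG00000041378.2, chr16:18776847-18778262, plus strand, 1 exon) encodes a claudin of endothelial tight junctions. It was the least counted marker, with 23 to 34 reads per library. Its level was 1.36, 1.50 and 1.35 CPM in WT and 1.69, 1.22 and 2.19 CPM in Pbrm1 cKO. The 95% interval of the log2 fold change, −0.29 to 0.80, includes 0 and also the rise seen in Flt1 (edgeR adjusted p = 0.45).

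Both genes for secreted proteins rose. Vwf (ENSMUSG00000001930.17, chr6:125546774-125686679, plus strand) encodes von Willebrand factor, the carrier of clotting factor VIII that endothelium stores in Weibel-Palade bodies and that megakaryocytes also make. Its level was 5.50, 5.03 and 2.52 CPM in WT and 14.3, 15.1 and 13.3 CPM in Pbrm1 cKO. WT replicate 3 was the lowest library, and even the highest WT library stood far below the Pbrm1 cKO libraries. The means were 4.35 ± 1.601 and 14.2 ± 0.937 CPM (SD, n = 3), a log2 fold change of 1.71 ± 0.181 (SE, 95% interval 1.32 to 2.10, edgeR adjusted p = 6.12e-06). Without WT replicate 3 the log2 fold change was 1.44. Of all tested genes, 1.95% changed more.

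Some genes on a list of platelet and megakaryocyte markers changed as well. Of 9 such markers 4 could be tested. In a comparison that called 43.7% of all tested genes (21.9% higher and 21.8% lower), 3 of the 4 were higher and 1 lower in Pbrm1 cKO. The rise was led by Pf4, a chemokine of platelet granules, at 81.2 ± 4.16 CPM in WT and 213 ± 26.8 CPM in Pbrm1 cKO (log2 fold change 1.39, edgeR adjusted p = 1.73e-08). Ppbp, another platelet chemokine, had a log2 fold change of 0.83, and Itga2b, the platelet integrin, of 0.85, which was not called without WT replicate 2 (edgeR adjusted p = 0.0627). The gene that fell was Itgb3, from 88.7 ± 3.67 to 74.9 ± 5.93 CPM (−0.24), named after its values were seen. The platelet receptor genes Gp1ba and Gp9 had no count in any library and Gp1bb had 1 count in 1 library. Gp6 and Treml1 had at most 4 counts in a library. The summed level of the 9 genes ran from 185 to 194 CPM in WT and from 294 to 345 CPM in Pbrm1 cKO. Its part in the Vwf result was not tested, and the cells that carried these 9 genes were not identified.

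Egfl7 (ENSMUSG00000026921.18, chr2:26580014-26593120, plus strand) encodes a matrix protein that endothelium secretes around growing vessels, and the gene carries the endothelial miR-126 within it. Its level was 24.4, 22.9 and 20.8 CPM in WT and 33.9, 24.8 and 34.5 CPM in Pbrm1 cKO. Pbrm1 cKO replicate 2 stood only just above the highest WT library, while the other two were well above. The means were 22.7 ± 1.82 and 31.0 ± 5.43 CPM (SD, n = 3), with a log2 fold change of 0.45 ± 0.111 (SE, 95% interval 0.21 to 0.69, edgeR adjusted p = 0.00525). The hosted microRNA is given in its mature form (RefSeq, chr2:26591402-26591423, plus strand, GRCm38.p6), with its seed in capitals.
mmu-miR-126a-3p: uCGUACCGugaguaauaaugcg
The libraries were not made to capture mature microRNAs, and the row of Mir126a held no count in any library. That row and the row of Gm20532 share exon sequence with Egfl7 on the same strand, where reads that fit both genes are dropped by the counting, so the Egfl7 counts leave out those stretches in all 6 libraries. Agpat2 shares exon sequence on the opposite strand, with 445 to 571 counts that were kept apart by the strand of the reads.

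Set against Pecam1 in the same library, the markers still parted. The ratio of Kdr to Pecam1 counts was 3.02 ± 0.117 in WT and 1.52 ± 0.239 in Pbrm1 cKO (SD, n = 3). The ratio of Vwf to Pecam1 went from 0.0722 ± 0.0264 to 0.217 ± 0.0235 and that of Flt1 to Pecam1 from 0.231 ± 0.00950 to 0.315 ± 0.00972. Emcn to Pecam1 went from 0.846 ± 0.0208 to 0.705 ± 0.0291, and Tek to Pecam1 from 0.179 ± 0.00846 to 0.159 ± 0.00761. For each of these 5 ratios the groups did not overlap, with an exact two-sided permutation p of 0.1, the smallest possible here, and an adjusted p of 0.171. The ratios of Cdh5, Tie1, Cldn5 and Egfl7 to Pecam1 overlapped between the groups (exact permutation p between 0.2 and 0.8). The widest parting was between Vwf and Kdr, whose ratio was 0.0237 ± 0.00811 in WT and 0.144 ± 0.00693 in Pbrm1 cKO, a log2 difference of 2.67.

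**Figure D3:**
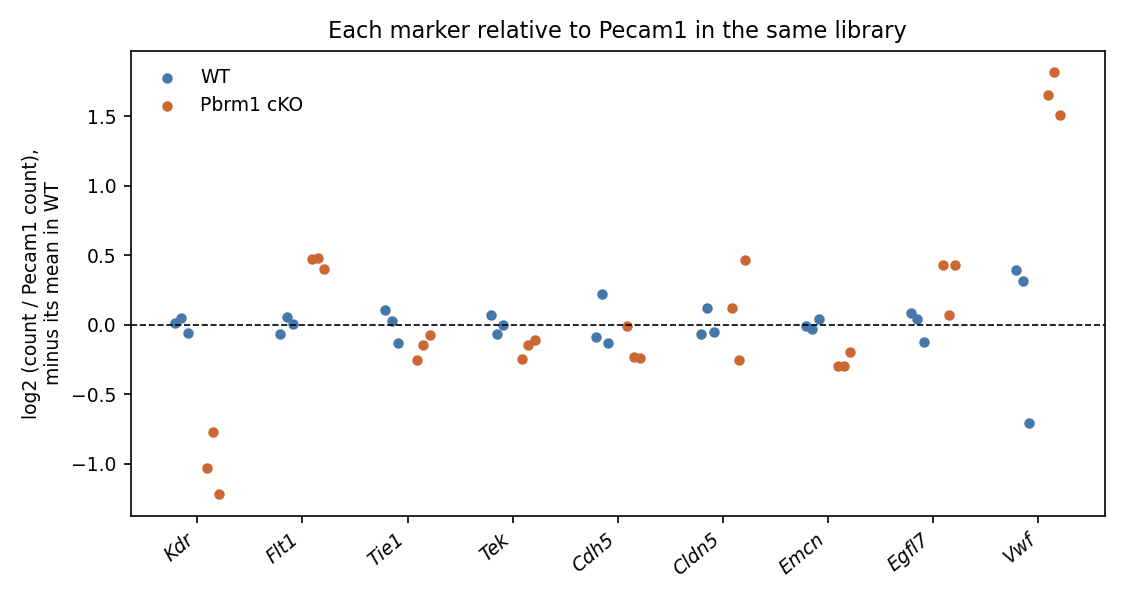
Log2 ratio of the counts of each of the other 9 markers to those of Pecam1 in the same library, minus the mean of that ratio in WT. WT and Pbrm1 cKO libraries are separate points. The groups stand apart for Kdr, Vwf, Flt1, Emcn and Tek and overlap for Cdh5, Tie1, Cldn5 and Egfl7.

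A sum over the markers turned on Kdr for its direction. The 10 markers together were at 405, 402 and 381 CPM in WT and at 345, 333 and 339 CPM in Pbrm1 cKO, with all 3 Pbrm1 cKO libraries lower. Kdr made up 45.7% to 46.1% of that sum in WT and 26.1% to 33.3% in Pbrm1 cKO. Without Kdr, the other 9 were at 214 ± 6.09 CPM in WT and 240 ± 15.1 CPM in Pbrm1 cKO (SD, n = 3), higher in place of lower. The sums are descriptions and no test was made on them.

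Inside each group the libraries also kept some order across markers. In Pbrm1 cKO, replicate 3 was highest for 6 markers and replicate 2 was lowest for 6, and replicate 3 lay above replicate 2 for 8 of 10, the exceptions being Kdr and Vwf. In WT, replicate 1 was highest for 6 markers and replicate 3 was lowest for 6. Pbrm1 cKO replicate 2 also had the highest Pbrm1 level of its group, at 50.7 CPM. Among the called markers, this library was the nearest of its group to the WT mean for Kdr (111 CPM), Flt1 and Egfl7 and the farthest for Vwf. A relation of these levels to that of Pbrm1 was not tested.

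Levels were also taken per length of the merged exons of a gene, as TPM (counts per base of exon, set to the same sum in each library). That length joins the exons of all annotated transcripts, 16064 bases for Vwf, so the order of the markers depends on it. The 3581 bases of Egfl7 include the stretches left out of its counts. On this measure Kdr had the highest mean of the markers in both groups, by a wide margin in WT and by a narrow one in Pbrm1 cKO. In WT it stood at 63.7 ± 2.27 TPM, above Pecam1 at 30.6 ± 0.443 TPM and Emcn at 29.8 ± 0.952 TPM, whose ranges overlapped. Cdh5 (24.8 ± 3.10 TPM) and Egfl7 (20.1 ± 1.58 TPM) came next, then Tie1, Tek, Flt1 and Cldn5, with Vwf last at 0.857 ± 0.315 TPM. Flt1 and Cldn5 were the only other neighbours that overlapped in WT. In Pbrm1 cKO, Kdr (34.3 ± 3.93 TPM) and Pecam1 (32.9 ± 1.45 TPM) overlapped, Egfl7 moved past Emcn and Cdh5 to 27.0 ± 4.76 TPM with overlapping ranges from Egfl7 to Emcn and from Emcn to Cdh5, and Vwf at 2.76 ± 0.187 TPM overlapped with Cldn5.

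Other endothelial genes were read from a list of 28, of which 26 could be tested. Of these, 13 rose, 2 fell and 11 were not called (57.7% called, against 43.7% of all tested genes), with a median log2 fold change of 0.30. The named examples are Nos3, which makes nitric oxide in endothelium (1.34 ± 0.256 to 3.08 ± 0.391 CPM, log2 fold change 1.20, edgeR adjusted p = 0.00047), and Cd34, a sialomucin shared with progenitors and stromal cells (30.7 ± 1.69 to 65.7 ± 7.92 CPM, log2 fold change 1.10, edgeR adjusted p = 2.78e-07). Calcrl, the adrenomedullin receptor, rose from 30.4 ± 1.15 to 53.1 ± 3.26 CPM (0.81), and Acvrl1, the BMP9 receptor ALK1, from 55.3 ± 1.85 to 86.6 ± 12.9 CPM (0.64). Cd93, a surface lectin, rose from 70.4 ± 4.02 to 104 ± 3.65 CPM (0.56), and Mmrn2, a matrix protein gene of endothelium, from 16.03 ± 0.836 to 22.4 ± 2.40 CPM (0.48). The genes that fell were Ptprb, the phosphatase VE-PTP that acts on TEK and Cdh5 (26.7 ± 2.01 to 20.6 ± 1.13 CPM, −0.37), and Eng, the co-receptor endoglin (191 ± 16.2 to 154 ± 14.7 CPM, −0.31), both named after their values were seen. Eng was at 149 ± 12.6 TPM in WT, above the WT mean of Kdr (63.7 TPM), and the cells that carried Eng were not identified.

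The transcription factors on that list were not called. Erg was at 4.96, 4.12 and 5.39 CPM in WT and at 5.00, 4.35 and 4.31 CPM in Pbrm1 cKO. Fli1, Sox7, Sox17, Sox18 and Tal1 likewise had adjusted p-values of 0.123 or more (edgeR). These were singled out after their values were seen. ERG, FLI1 and the SOX factors are regulators of endothelial identity, and the log2 fold change was −0.08 for Erg and 0.17 for Fli1.

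The ligands and co-receptors around KDR, FLT1 and TEK were 11 further genes, of which 6 rose, 2 fell and 3 were not called (72.7% called, against 43.7% of all tested genes). Vegfd, which in the mouse encodes a ligand of the lymphatic receptor FLT4 and not of KDR, went from 3.84, 4.38 and 4.16 CPM in WT to 19.6, 12.9 and 21.1 CPM in Pbrm1 cKO (log2 fold change 2.10, edgeR adjusted p = 6.42e-07). Vegfc, whose protein binds FLT4 and KDR, fell from 26.3 ± 1.85 to 16.6 ± 1.18 CPM (−0.67). Vegfa, the chief ligand of KDR, had 328 ± 11.4 CPM in WT against 333 ± 28.9 CPM in Pbrm1 cKO (0.02, edgeR adjusted p = 0.768). Nrp1, a co-receptor of KDR that stromal cells also carry, rose from 189 ± 1.41 to 324 ± 3.94 CPM (0.77, edgeR adjusted p = 1.01e-08). Nrp2, the other neuropilin gene listed, fell from 206 ± 3.87 to 177 ± 6.45 CPM (−0.22, edgeR adjusted p = 0.00128). Among TEK ligands, Angpt2 had the highest level and rose from 73.0 ± 4.84 to 82.9 ± 5.62 CPM (0.18, edgeR adjusted p = 0.0307). Nrp2 and Angpt2 were named after their values were seen. Angpt4 rose from 3.28 ± 0.702 to 10.95 ± 3.93 CPM (1.72). Angpt1, at 0.382 ± 0.186 and 0.877 ± 0.0945 CPM, lay low and was not called by DESeq2 (adjusted p = 0.0874). Angpt1 also lost its call without WT replicate 2, WT replicate 3 or Pbrm1 cKO replicate 1 (edgeR adjusted p between 0.0664 and 0.0877).

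Genes of vessel subtypes went in both directions, as did all tested genes (21.9% higher and 21.8% lower). Of 7 arterial genes 2 rose and 3 fell (71.4% called). Dll4, a Notch ligand of arteries and tip cells, rose from 2.55 ± 0.292 to 6.71 ± 0.0350 CPM (log2 fold change 1.39), while Efnb2, the ephrin of arterial endothelium, fell from 137 ± 10.9 to 77.2 ± 5.97 CPM (−0.82) and Unc5b, a netrin receptor gene, from 450 ± 28.4 to 328 ± 26.0 CPM (−0.45). Among 6 tested genes of capillaries and tip cells 2 rose and 1 fell (50% called, near the 43.7% of all tested genes). Apln, the apelin ligand of sprouting vessels, rose from 3.84, 3.58 and 3.92 CPM to 21.4, 14.3 and 25.0 CPM (2.41, edgeR adjusted p = 3.85e-07), and Esm1, a proteoglycan gene of tip cells, fell from 58.7, 60.0 and 55.1 CPM to 19.2, 34.9 and 20.3 CPM (−1.21, edgeR adjusted p = 3.33e-05). Pbrm1 cKO replicate 2 was nearest to WT for both. The fatty acid carrier gene Cd36 rose from 205 ± 6.82 to 288 ± 6.59 CPM (0.49). In WT, Efnb2, Unc5b and Cd36 stood above the mean of 60.1 CPM of Pecam1. Per length of exon, Esm1 (87.5 ± 3.80 TPM) and the venous gene Ephb4 (69.6 ± 2.12 TPM) stood above the WT means of Kdr (63.7 TPM) and Pecam1 (30.6 TPM). The cells that carried Efnb2, Unc5b, Cd36, Esm1 and Ephb4 were not identified. Venous genes gave 3 higher and 1 lower of 6 tested (66.7% called), among them Vcam1, a leukocyte adhesion molecule (18.8 ± 0.161 to 29.4 ± 3.80 CPM, 0.64), and Ephb4, the venous ephrin receptor (102 ± 3.24 to 116 ± 3.44 CPM, 0.19). Lymphatic genes gave 2 higher and 1 lower of 6 (50% called), and Pdpn, podoplanin, which fibroblasts also carry, rose from 345 ± 5.49 to 507 ± 38.7 CPM (0.56). Vegfb, Gja5, Gja4, Sele, Selp, Reln and Mmrn1 were also called in these lists, and each lost its call in at least 1 of the fits without a library.

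Markers of other cells in the preparation moved too, in a comparison that called 43.7% of all tested genes (21.9% higher). Of 8 tested genes of mural cells, the pericytes and muscle cells around vessels, 7 rose and 1 fell (median log2 fold change 0.57), led by Ndufa4l2 (1.73), Kcnj8 (1.47) and Abcc9 (1.38), and their summed level was 467 to 503 CPM in WT and 578 to 665 CPM in Pbrm1 cKO. Leukocyte markers gave 6 higher and none lower of 7 tested, and the pan-leukocyte phosphatase gene Ptprc went from 15.04 ± 0.567 to 30.6 ± 2.70 CPM (1.02, edgeR adjusted p = 4.32e-07), with Itgam (0.92) and Csf1r (0.59) next in log2 fold change. Smooth muscle markers gave 5 higher and 1 lower of 8 tested, with the largest log2 fold changes in Des (1.21), Lmod1 (0.80) and Myh11 (0.74). Fibroblast markers gave 4 higher and 1 lower of 7, led by Dcn (0.92), Col3a1 (0.86) and Pdgfra (0.82). Epithelial markers gave 5 higher and none lower of 7, led by Epcam (1.07), Cdh1 (0.54) and Krt8 (0.18), the last of which lost its call in fits without a library. Mesothelial markers gave 1 higher and 2 lower of 5, with Msln at −0.82, Krt19 at 0.79 and Lrrn4 at −0.37. The only red cell gene tested was Hbb-bs, a beta globin, with 20, 22 and 22 counts in WT and 4, 0 and 1 in Pbrm1 cKO. The part of these cells in the changes of Kdr, Flt1, Egfl7 and Vwf was not tested.

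**Figure D4:**
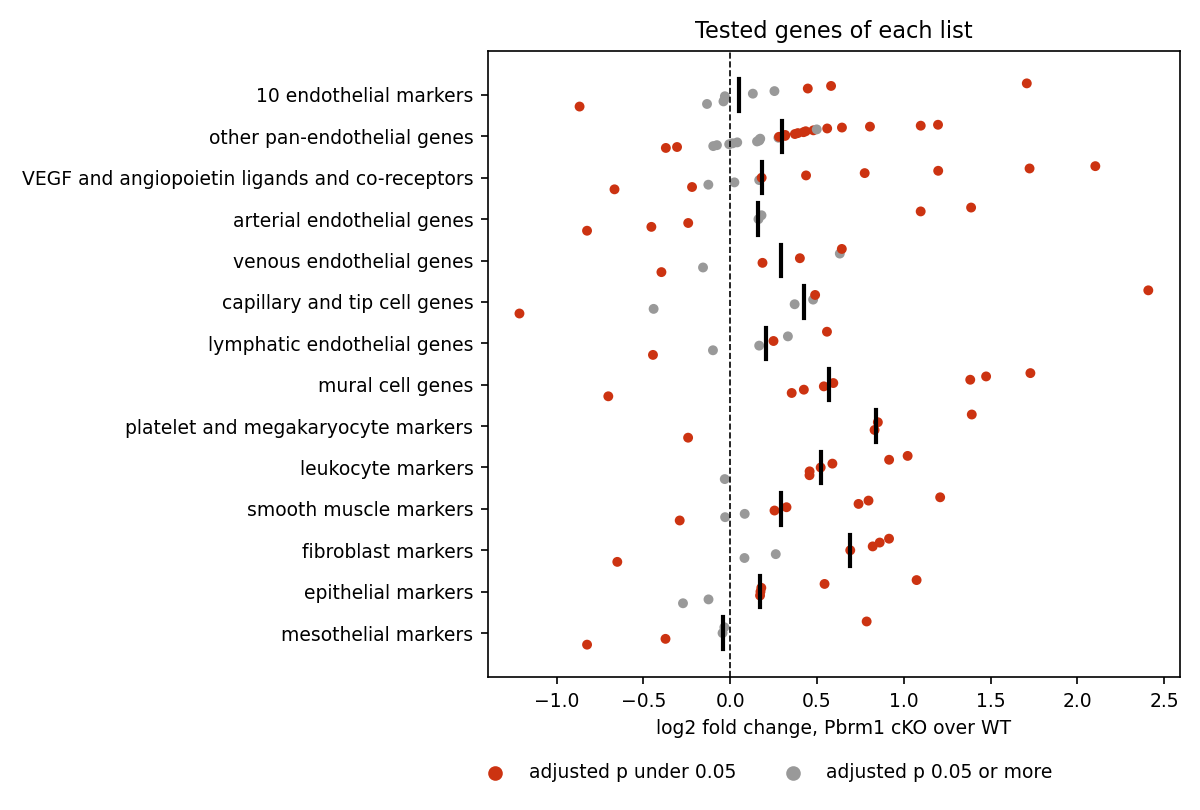
Log2 fold change of every tested gene in 14 marker lists, Pbrm1 cKO over WT, 1 point per gene, with a black line at the list median and colour for an adjusted p under 0.05 (edgeR). The 10 endothelial markers run from −0.87 to 1.71 around a median of 0.05, and the medians of the other lists run from −0.04 to 0.84.

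The genes whose pattern over the 6 libraries was most like the summed level of the 10 markers included Cwc25, Rab35, Gm17018 and Zrsr2, with root mean square distances of 0.0146 to 0.0237 on the log2 scale among 12508 protein-coding genes outside the lists. Each of these 4 had a log2 fold change between −0.24 and −0.21, close to the log2 ratio of −0.22 of the sum they were matched to.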

How the data were processed

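RNA-seq libraries of oviduct muscle preparations from 3 WT and 3 Pbrm1 cKO samples were compared. The authors deposited whole-number read counts per gene, made with featureCounts 1.6.4 on the reverse strand over GENCODE M18 exons, along with the exon length of each gene (another deposited column, used for TPM). The submitters' processing notes name cutadapt, HISAT2 and GRCm38.p5. Reads that map to several genes of a strand or to several places are left out of such counts by default. Of 54232 genes, 54165 (99.9%) had a symbol in GENCODE M21, and 0 columns were left without a sample.

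The 10 markers were matched by symbol. The markers and lists were chosen with earlier results of these data known. Genes were tested with the edgeR 4.0.16 quasi-likelihood test in R 4.3.3 (TMM factors, filterByExpr, two-sided) over 15376 genes with Benjamini-Hochberg adjustment at 0.05, and values are CPM with SD over 3 libraries. No set test was made. Ratios of counts within a library were compared by exact permutation of the 20 assignments. The floor of 3 counts covers counting error only, since no molecular identifiers were read. DESeq2 1.42.0, limma-voom (limma 3.58.1), RLE factors, library totals alone, no filter, at least 10 counts in every library, a threshold of 0.01, a replicate block and leaving out each library were alternatives, and the sum without Kdr was added after the data were seen. The test was checked on simulated counts.

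Besides the 10 markers and Pbrm1, the text names called genes of each list by size of change (at most 6 for endothelial lists and 3 for lists of other cells) and the 5 genes nearest to the summed level of the markers with a mean of at least 1 CPM, of which 1 is not reported here. Others are marked as chosen after their values were seen, except Vegfa and list members given for being at or near 0. Replicate pairs of a group differed by more than sampling noise (chi-square per gene between 1.31 and 1.60).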

Additional observations from a re-analysis of the deposited data

How the results depend on the processing

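The direction and the call of Kdr, Flt1, Egfl7 and Vwf held under all 13 alternatives other than the stricter threshold. Their log2 fold changes ran from −0.95 to −0.79 for Kdr, 0.56 to 0.61 for Flt1, 0.37 to 0.59 for Egfl7 and 1.44 to 1.90 for Vwf, with adjusted p of at most 0.0343 (Egfl7 without WT replicate 3). Pecam1 passed the threshold when libraries were scaled by their totals alone (log2 fold change 0.146, adjusted p = 0.0407). With 1 library left out, the log2 fold changes ran from 0.106 to 0.17 for Pecam1 (past the threshold without Pbrm1 cKO replicate 2), −0.193 to −0.0776 for Emcn (past it without Pbrm1 cKO replicate 3, adjusted p = 0.0275), 0.0458 to 0.458 for Cldn5, −0.123 to 0.076 for Cdh5 (positive without WT replicate 2 or Pbrm1 cKO replicate 2, 0.0456), −0.0897 to 0.00668 for Tek (positive without WT replicate 1), and −0.0975 to 0.0331 for Tie1 (positive without WT replicate 1, Pbrm1 cKO replicate 1, 0.00692, or Pbrm1 cKO replicate 2, 0.00363). The sum over the 10 markers, lower in Pbrm1 cKO by a log2 ratio of −0.22, turned higher as the mean of the 10 log2 fold changes (0.202) and without Kdr (0.162). The numbers of the replicates did not pair the libraries (correlations of the deviations of −0.0316, 0.0442 and 0.111). With the replicate block, 4 markers were called, as without it, and 6908 genes in all in place of 6723. DESeq2 called 5535 genes, 4 of the markers and 13 of the other 26 endothelial genes. The cause of these differences was not tested. Among the genes that the naming rule picked besides the markers, 619 of 648 values kept their call, 29 lost it and 0 turned direction. The groups of 3 libraries limit every interval, and Cldn5, at 23 to 34 counts, has the widest.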
